A study of Mus musculus with 2 samples.

Results

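Angptl7/Cilp2 cells are cells of mouse ear skin that carry cartilage-gate genes and score highest for Angptl7, Cilp2, Cyp26a1 and Itgbl1, and 835 of the 23878 cells kept in both libraries belonged to this class. There were 537 among 12213 control cells and 298 among 11665 cells of allergic contact dermatitis (ACD). They were chosen by measured values: no UMI (unique molecular identifier, 1 captured RNA molecule) of Ptprc, the pan-leukocyte marker, none of Pdgfra, a fibroblast receptor, and at least 3 UMIs of Comp, Col9a1, Hapln1 and Cilp2 together. Each gated cell then got the mean of ln(1 + UMIs per 10000) over 5 sets of 4 genes, and a member had the set of Angptl7, Cilp2, Cyp26a1 and Itgbl1 highest and at or above 0.5. The other sets were Cytl1, Wif1, Msmp and Trf (Cytl1/Wif1 cells, 2197 in control and 1251 in ACD), Ucma, Smoc1, Fbln7 and Prss23 (Ucma/Smoc1 cells, 88 and 42), Gdf5, Scara3, Mpped2 and Atp6v0a4 (Gdf5/Scara3 cells, 50 and 35), and Acan, Col9a3, Corin and Dgat2 (Acan/Corin cells, 37 and 90).

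The control library came from healthy ear skin of ICR mice aged 7 to 8 weeks, and the ACD library from ear skin of mice of the same strain and age that had been sensitized with 1.0% 1-fluoro-2,4-dinitrobenzene (DNFB), a contact hapten, and challenged on day 6 with 0.2% DNFB, with skin taken at 60 hr. The labels name no genetic change in either group. Each group was 1 library of dispersed whole ear skin, so no difference below has a replicate check or a test, and the state of the skin, the animal and the library cannot be told apart. Members had a median of 7558 UMIs and 2512 genes per cell in control and 9250.5 UMIs and 2758.5 genes in ACD, with 4313945 and 2914246 UMIs in all. Intervals in parentheses are exact at 95% and cover counting error only, and levels are UMIs per 1000000 UMIs of a class.

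The external ear is held up by a plate of elastic cartilage. Its chondrocytes lie in a matrix of collagen and proteoglycans, and around it lies the perichondrium, a fibrous sheath of flattened cells that hold collagen I, small leucine-rich proteoglycans and progenitors able to form cartilage. Contact allergy brings T cells into the skin that release interferon-gamma, to which many stromal cells answer with antigen-presentation genes and guanosine-triphosphate-binding defence proteins.

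In the members the 4 genes of the rule were present as the rule demanded, and these values carry no test. After thinning every cell to 2000 UMIs, Angptl7, a secreted angiopoietin-like protein, was seen in 97.0% of the 536 control members and in 90.9% of the 297 ACD members. Cilp2, a cartilage intermediate-layer protein, was found in 72.2% and 71.4%, Itgbl1, a secreted integrin-beta-like protein, in 73.3% and 61.3%, and Cyp26a1, the enzyme that degrades retinoic acid, in 33.4% and 39.1%. The level of Angptl7 (ENSMUSG00000028989, chr4:148495183-148500460 on GRCm38) was 6175 in control and 4246 in ACD, that of Cilp2 896 and 811, that of Itgbl1 808 and 587, and that of Cyp26a1 274 and 419. So the set was led by Angptl7, Cilp2 and Itgbl1 in both libraries, while Cyp26a1 was seen in fewer cells. All 4 genes had a UMI in 281 control and 176 ACD members, and within members they ran together loosely, with Pearson's r across cells between -0.11 (Cyp26a1 and Itgbl1, control) and 0.31 (Cilp2 and Itgbl1, ACD), given as a description of sparse counts.

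**Figure D1:**
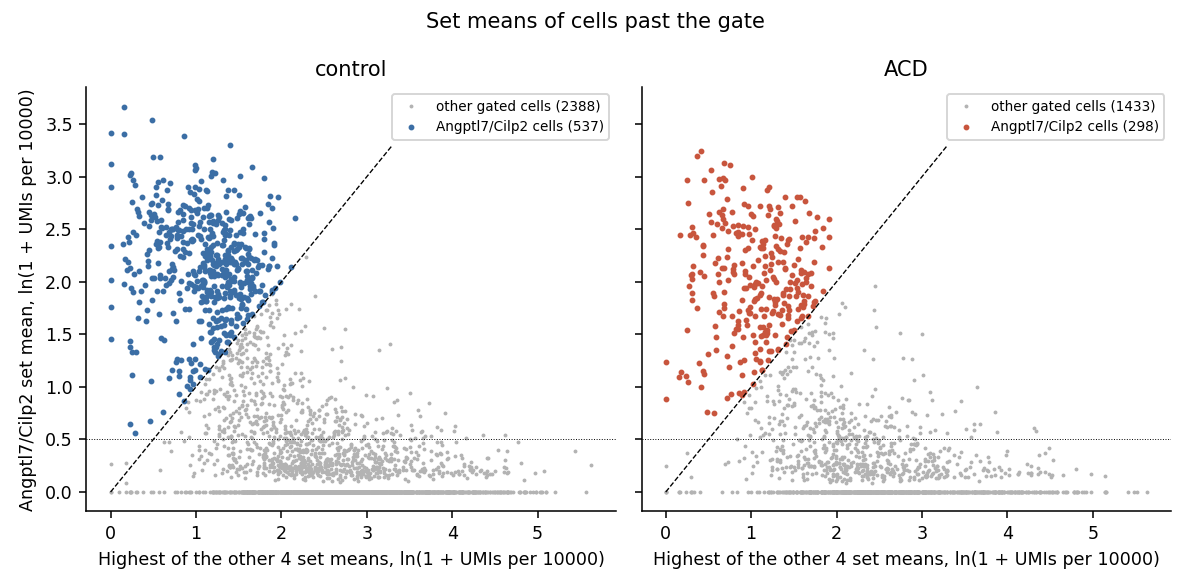
Each point is 1 cell past the gate, plotted by the mean of the Angptl7, Cilp2, Cyp26a1 and Itgbl1 set (y axis) against the highest of the other 4 set means (x axis), both as ln(1 + UMIs per 10000), with members colored, the line of equality dashed and the 0.5 limit dotted. The 537 control and 298 ACD members lie above the line of equality, and almost none is near the 0.5 limit.

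The 0.5 limit took hold of almost no cell, since 1 control and 0 ACD members had a set mean under 0.6. The edge that mattered was the next set. In 27 control and 21 ACD members the set mean stood less than 0.1 above the next set, and 28 and 11 cells missed membership by less than 0.1. Of the members, 19 and 15 had exactly 3 gate UMIs, and 21 and 16 cells with 2 gate UMIs would otherwise have been members. The Pdgfra condition weighed most: 625 control and 572 ACD cells met every other condition and carried a Pdgfra UMI, which is more cells than the members themselves. They are described apart at the end. Scrublet, a doublet caller that was used only as an alternative, marked 13 control and 3 ACD members. The libraries shared 50 cell barcodes, none of them a member in both.

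The label of perichondrial cells was checked against marker lists. In the members 18 of 20 genes of the perichondrium and periosteum list had 50 or more UMIs. So did 10 of 10 genes of the tendon and ligament list. The counts were 10 of 11 for dermal fibroblasts and 14 of 22 for the cartilage core, with 1 and 7 rule genes left out. Such counts do not tell the lists apart. Of the perichondrium and periosteum list, Col1a1, a fibrillar collagen, stood at 2797 in control and 2347 in ACD, against 718 and 410 in Cytl1/Wif1 cells. Col1a1 is 1 of the 18 genes, and a comparison with Cytl1/Wif1 cells does not tell perichondrium from dermal fibroblasts. The chondrocyte regulator Sox9 stood at 443 and 419, against 731 and 770 in Cytl1/Wif1 cells. Col2a1, the main collagen of cartilage, stood at 36.6 and 35.7, against 600.0 and 677 in Cytl1/Wif1 cells. Acan, the large cartilage proteoglycan, stood at 27.4 and 27.8 in the members. Scx and Tnmd, genes of tendon and ligament cells, were also higher in the members: Scx stood at 227 and 209 against 47.0 and 61.0, and Tnmd at 332 and 203 against 116 and 57.8. The members thus carried collagen I, Sox9 and tendon genes beside little Col2a1. Acan is a gene of a competing set, so its low level is in part fixed by the rule and does not bear on the label. The dermal fibroblast list, over its 10 genes outside the rule, summed to 30358 per 1000000 in control members and 25672 in ACD members. The perichondrium and periosteum list came to 6873 and 6317. The proteoglycan Dcn and the collagen Col1a2 made up most of the dermal fibroblast sum, so these sums do not tell the lists apart either. The erythrocyte list came to 2589 and 4718. The skeletal muscle list came to 1.85 per 1000000 summed over 6 genes in control and 2.06 in ACD, the T and NK cell list to 9.50 and 31.2, and the endothelial list to 13.9 and 18.5.

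A total of 12074 genes were compared between members and the pooled cells of the other 4 classes, and 275 (2.28%) were at least 2-fold higher and 273 (2.26%) at least 2-fold lower in both libraries. The classes are cut from scores of these same cells, so this is a description. Mfap4, a microfibril-associated glycoprotein, ranked highest, at 1650 in control members against 39.7 in the other classes and at 1319 against 29.5 in ACD, or 5.38 (5.27 to 5.49) and 5.48 (5.33 to 5.63). Next came Sfrp2, a secreted Wnt modulator, with log2 ratios of 4.81 and 6.43, Olfml3 with 5.23 and 4.92, and Aldh1a1, a retinaldehyde dehydrogenase that makes retinoic acid, with 4.74 and 4.89. The insulin-like growth factor (IGF) binding proteins Igfbp6 (3.61 and 4.13) and Igfbp5 (2.92 and 3.36) followed with Stc2, an inhibitor of the IGF-binding-protein protease family (3.93 and 4.17). The thrombospondins Thbs1 (3.56 and 3.35) and Thbs4 (a level of 924 against 115 in control), the protease Prss12 (4.47 and 4.23), Wisp2 (4.45 and 5.15) and matrilin 4, Matn4 (3.24 and 3.26) completed the 12 highest.

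The genes lowest in the members were 1520401A03Rik, 3110079O15Rik, Fxyd3, a regulator of the sodium pump (log2 ratios of -5.46 in control and -5.46 in ACD), Cpe, a carboxypeptidase (-4.87 and -4.82), and Mfi2 (-7.00 and -6.71). Also among the 8 lowest were Col27a1, a fibrillar collagen of cartilage (-4.83 and -4.62), Prg4, the lubricant lubricin (-6.32 and -4.30), and Timp4, an inhibitor of matrix proteases (-5.27 and -5.44). Among the named genes, those whose level per cell ran most closely with the set mean over the members were Thbs1 (r = 0.51 in 537 control and 0.44 in 298 ACD cells), Mfap4 (0.49 and 0.41), Chad (0.38 and 0.41), Cpxm2 (0.37 and 0.40) and Serpinf1 (0.47 and 0.36). Cells of a library share depth and preparation, so no p is given.

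Enzymes on both sides of retinoic acid were present in the members. Aldh1a1 (chr19:20492715-20643465) stood at 210.2 (197 to 224) in control and 197 (181 to 213) in ACD, against 7.56 and 6.11 in Cytl1/Wif1 cells and 238 and 109 in dermal fibroblast-gate cells (no Ptprc UMI, at least 2 Pdgfra UMIs and none of the cartilage-gate genes). The degrading enzyme Cyp26a1, a gene of the rule, was at 26.9 in Cytl1/Wif1 cells and at 1.49 in the fibroblast-gate cells of ACD. Cyp26b1, the related enzyme, stood at 57.5 and 51.1 in members, below Cytl1/Wif1 cells (192 and 207) and fibroblast-gate cells (643 and 476). Aldh1a2 was nearly absent, with levels of 1.39 and 1.03. Of 18 retinoid genes, 11 had 50 UMIs besides Cyp26a1 and none was 2-fold higher or lower in ACD. Those reported ran from -0.44 for Dhrs3, a retinaldehyde reductase, and -0.37 for the receptor Rxra, through Crabp1 (-0.14), Cyp26b1 (-0.14), Crabp2 (-0.10), Aldh1a1 (-0.09), Rdh10 (0.01), the receptor Rarg (0.07) and Rbp4 (0.20), to 0.30 for the receptor Rara, as log2 ratios with 10 UMIs per 1000000 added to each side.

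**Figure D2:**
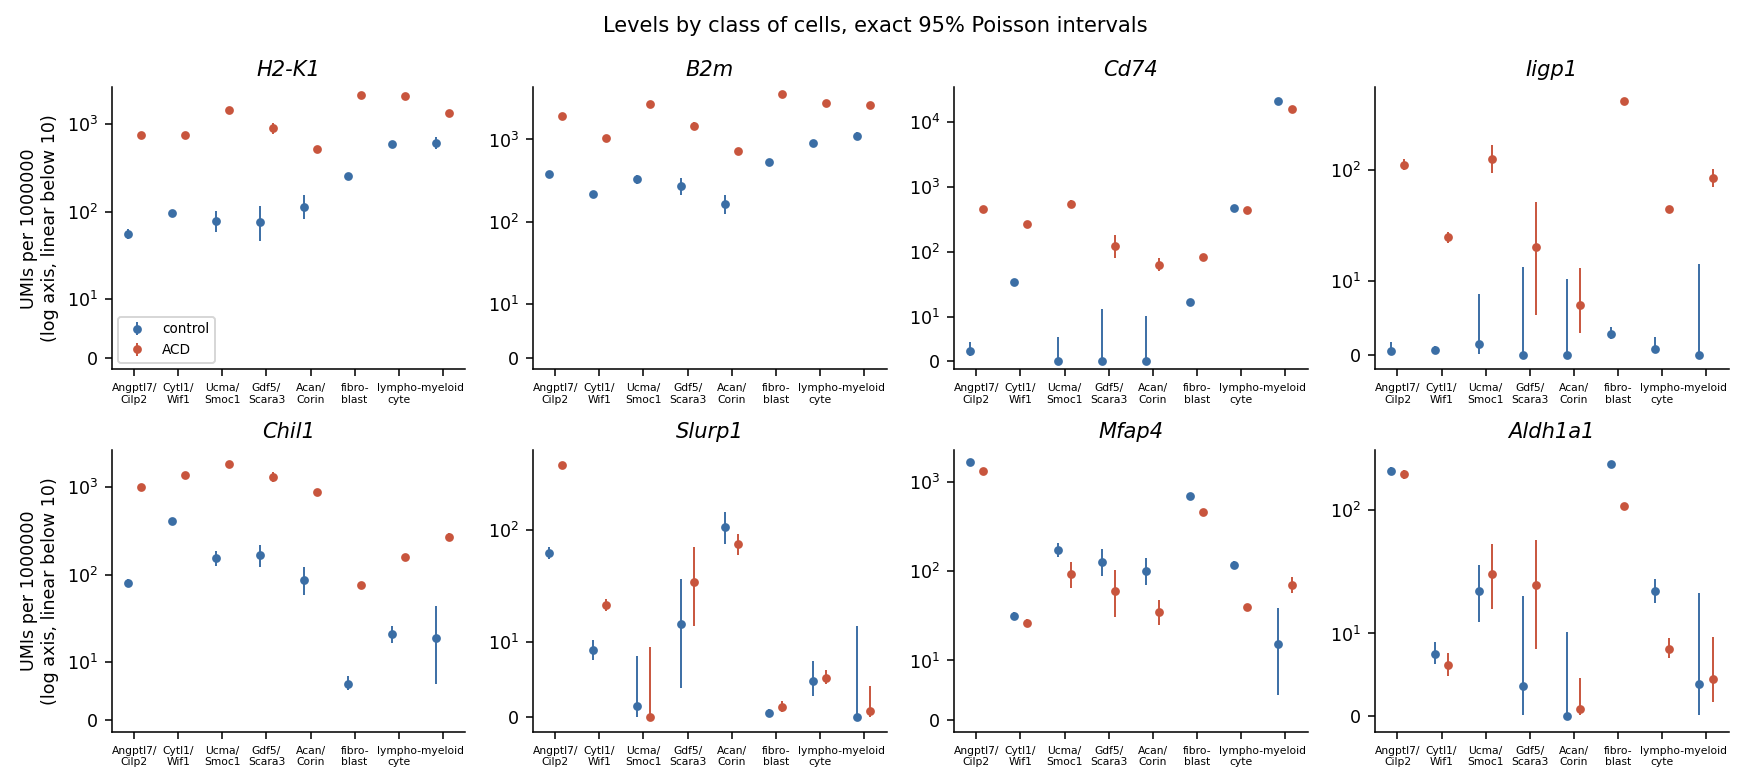
Levels of 8 genes as UMIs per 1000000 (log axis, linear below 10) in the 5 cartilage classes and in fibroblast-gate, lymphocyte-gate and myeloid-gate cells, with control in blue, ACD in red and exact 95% Poisson intervals as bars. Mfap4 is highest in the members in both libraries, Slurp1 is highest in the ACD members, and H2-K1, B2m, Iigp1 and Chil1 are higher in ACD than in control in every class of cells drawn.

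The share of members was compared between healthy and inflamed skin over 2 denominators. Members made up 4.40% (4.04 to 4.78%) of kept control cells and 2.55% (2.28 to 2.86%) of kept ACD cells, which is -0.78 in log2 (-0.99 to -0.58). Over cells of the 5 cartilage classes they made up 18.5% (17.1 to 19.9%) of 2909 control cells and 17.4% (15.6 to 19.2%) of 1716 ACD cells, which is -0.09 in log2 (-0.30 to 0.12). The fall was thus seen only against all kept cells, among which lymphocyte-gate cells (a Ptprc UMI and at least 2 UMIs of Cd3d, Cd3e and Cd3g) numbered 671 in control and 2829 in ACD. Without the Pdgfra condition, 1162 control and 870 ACD cells qualified, 9.51% and 7.46% of kept cells, and the log2 ratios became -0.35 over kept cells and 0.16 over cartilage-class cells. Fewer cells of a class and poorer release of them from the tissue cannot be told apart.

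In members of ACD skin, 58 of 8884 genes with at least 50 UMIs (0.653%) were at least 2-fold higher than in control, and 3 (0.0338%) were at least 2-fold lower, with 10 UMIs per 1000000 added to each side. The 2-fold limit is a rule of size, not a test. The counting intervals of all 58 and of all 3 left out a ratio of 1, and the median log2 ratio of all genes was -0.06. Without a limit on size the balance was the other way, with the interval above a ratio of 1 for 667 genes and below it for 1309. In order the 12 highest were Cd74, H2-Ab1, Iigp1, H2-K1, Chil1, Psmb8, Bst2, H2-Aa, Psmb9, Igtp, Slurp1 and Slpi. Of the 58 genes, 42 were also at least 2-fold higher when the 3 cells with most UMIs of each gene were left out.

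**Figure D3:**
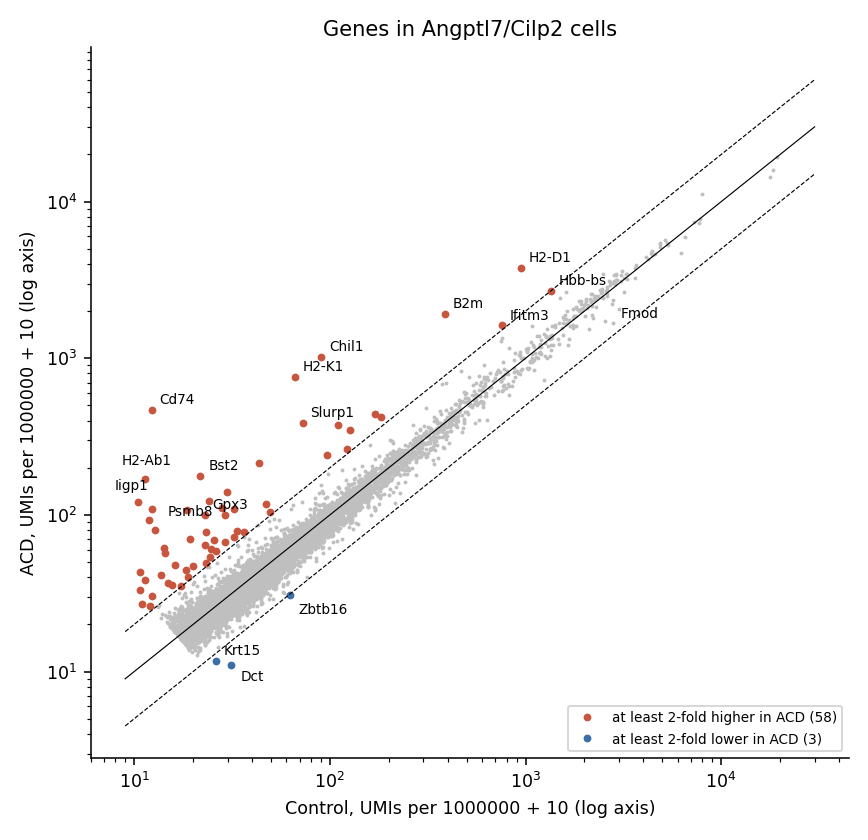
Each point is 1 of 8884 genes in the members, plotted by its level in ACD against its level in control, both as UMIs per 1000000 plus 10 on log axes, with equality as a line and 2-fold limits dashed. The 58 red genes lie above the upper limit, led by Cd74, and only Dct, Krt15 and Zbtb16 (blue) lie below the lower one.

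MHC class I genes and the genes that load peptides onto class I molecules were the largest group among the 58 genes: 11 of the 15 with 50 UMIs were at least 2-fold higher, none was lower, and their median log2 ratio was 1.55. Of the 11, Psmb8, Psmb9, Tap1 and H2-Q7 were under 50 UMIs in control and passed through ACD. The count and the median are therefore not support for a change of the list. H2-K1 (chr17:33996017-34000347), a class I heavy chain, had 242 UMIs in control and 2184 in ACD, a level of 56.1 (49.3 to 63.6) against 749 (718 to 782) which is 3.74 (3.55 to 3.94) on the log2 scale. H2-D1 (chr17:35262730-35267499), the second classical heavy chain, went from 938 (909 to 967) to 3785 (3714 to 3856), and B2m (chr2:122147686-122153083), the light chain that all of them share, from 377 (359 to 396) to 1909 (1859 to 1960). The immunoproteasome subunits Psmb8 (2.32 to 99.9) and Psmb9 (2.78 to 69.7), which cut proteins into class I peptides, the peptide transporter Tap1 (6.26 to 37.7) and its partner Tapbp (117 to 337) were among the 11. Those under 2-fold were Tap2 (0.90), Psmb10 (0.83) and the proteasome activators Psme1 (0.79) and Psme2 (0.45). H2-Q4, H2-Q7, H2-T22 and H2-T23 are near-identical copies whose reads can be split between family members, so their single values are uncertain.

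The class I genes were higher across most members rather than in a few. Summed over the list at 2000 UMIs per cell, a control member had a median of 3 UMIs (10th to 90th percentile 1 to 6, highest 12) and an ACD member a median of 14 (3 to 29.4, highest 55). Of the ACD members, 73.4% (218 of 297) lay above the 90th percentile of control. The rest overlapped with control, so the ACD members ran from cells like control to cells with 55 class I UMIs. A UMI of H2-K1 was seen in 8.40% (6.19 to 11.1%) of the control members and in 58.9% (53.1 to 64.6%) of the ACD members (unthinned 32.4% and 84.2%), with 1 cell of each library too shallow to thin. The share in Cytl1/Wif1 cells was 17.1% in control and 56.5% in ACD.

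**Figure D4:**
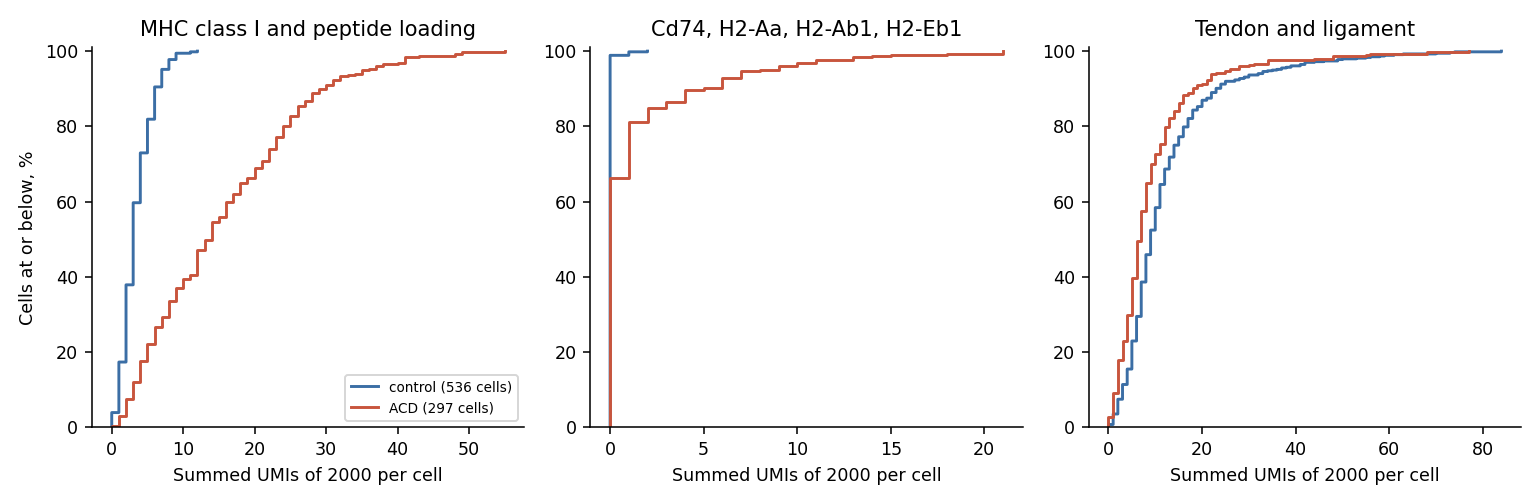
Cumulative share of members (y axis, percent) by the summed UMIs per cell after thinning to 2000 UMIs (x axis), for MHC class I and peptide-loading genes, for Cd74 with 3 class II genes, and for tendon and ligament genes, with 536 control cells in blue and 297 ACD cells in red. The class I curves are set apart over most of their range (medians of 3 and 14), the class II curve of ACD departs from control in 33.7% of cells, and the tendon curves lie close together (medians of 9 and 7).

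Genes of the class II pathway, which presents peptides to CD4+ T cells and is mostly confined to professional antigen-presenting cells, went from almost no UMIs to clear detection. Cd74 (ENSMUSG00000024610), the invariant chain of class II, had 10 UMIs in control members and 1331 in ACD members, a log2 ratio of 7.62 (6.74 to 8.69). H2-Ab1 had 6 and 465 UMIs (6.84, 5.71 to 8.30) and H2-Aa 8 and 243 (5.49, 4.49 to 6.72), the chains of the class II molecule I-A, while H2-Eb1 had 3 and 21. UMIs of Cd74 lay in 129 of 298 ACD members, and the 3 richest cells held 15.2% of them. After thinning, Cd74 was seen in 0.187% of the control members and in 25.3% (20.4 to 30.6%) of the ACD members (unthinned 1.86% and 43.3%), and H2-Ab1 in 0.560% and 18.5% (unthinned 1.12% and 32.6%). The thinned ACD shares of Cd74 were 17.6% in Cytl1/Wif1 cells, 12.8% in lymphocyte-gate cells and 6.70% in fibroblast-gate cells, at median depths of 8944, 6179 and 11262.5 UMIs.

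Free RNA of antigen-presenting cells can leave UMIs in other droplets, so myeloid genes were counted in the same members. The 1331 Cd74 UMIs of ACD members stood beside 4 of Lyz2, 9 of Tyrobp and 6 of Fcer1g. That is 70.1 Cd74 UMIs per UMI of these 3 genes, against 2.17 in myeloid-gate cells of ACD. Myeloid-gate cells were picked by UMIs of Ptprc, Lyz2 and Tyrobp, which holds their ratio down. Cells rich in Cd74 but poor in these genes were not compared by this ratio, and the source of the Cd74 UMIs was not tested. Over the whole myeloid list of 9 genes, which holds Cd74, the summed level went from 9.50 to 470 and 1 gene was at 0 in ACD. Cd74, H2-Ab1 and H2-K1 tended to be found in the same cells: of 75 ACD members with a thinned Cd74 UMI, 49.3% had H2-Ab1 and 76.0% H2-K1, against 8.11% and 53.2% of 222 without. Ciita, the master activator of class II, had 0 UMIs in members of both libraries and a level of 26.5 in myeloid-gate ACD cells, and Cd80 and Cd86, costimulatory ligands, had none in members. A count of 0 in 298 cells says little about a gene as scarce as Ciita.

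Interferon-gamma-induced GTPases, large and small guanosine-triphosphate-binding proteins that act on vacuoles of pathogens, were low in control, where the list of 15 summed to 43.3 per 1000000 against 407 in ACD. Of 15 in the list, 6 reached 50 UMIs, and because 5 of these 6, all but Gbp7, were under 50 in control and passed through ACD, their count of 6 at least 2-fold higher and their median of 1.46 are not support for a change. Iigp1 (ENSMUSG00000054072) had 2 UMIs in control and 323 in ACD, which is 7.90 (6.04 to 10.95) in log2, in 58 of 298 cells. Igtp (chr11:58199556-58207591) had 37 and 282 UMIs, levels of 8.58 and 96.8, and the others were Gbp2 (16 and 92), Gbp3 (4 and 50), Gbp7 (63 and 148) and Irgm1 (43 and 108). The level of Iigp1 in ACD was 111 (99.1 to 124) in members, 125 in Ucma/Smoc1 cells, 24.4 (21.7 to 27.4) in Cytl1/Wif1 cells and 411 (399 to 423) in fibroblast-gate cells. Thinned, Iigp1 was found in 9.09% of ACD members (unthinned 19.5%), 2.89% of Cytl1/Wif1 cells and 3.87% of lymphocyte-gate cells. So within ACD the members stood between the fibroblast-gate cells and the Cytl1/Wif1 cells for this gene.

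Since these genes moved together, their promoters were read for the cores of 2 interferon response motifs. The interferon-stimulated response element (ISRE) was searched as GAAANNGAAA on both strands and the gamma-activated site (GAS) as TTCNNNGAA, which reads the same on both strands, in the 250 bases before the RefSeq start. Of the 17 class I and GTPase genes that were at least 2-fold higher, 16 had a window, and 8 of these (50%) held an ISRE core, against 3.46% of all 27025 genes with a window. The GAS core was in 3 of 16 (18.8%), against 8.13%. The 17 genes come from lists chosen with earlier results known and were taken because they were higher. No share was taken over list genes that were not higher, so neither share bears on the change in these cells. Both cores shared letters in 1 of the 40 higher genes with a window, beside 5 of 6873 tested genes with a window. Of all 58 higher genes 40 had a window, under 80%, so no share is given for them. Windows of 4 of the 8 genes are shown, because they hold the match at different distances from the start, on GRCm38.p6 and 5′ to 3′ on the strand of the gene, with the ISRE letters in capitals.
B2m (chr2:122147437-122147686, plus strand): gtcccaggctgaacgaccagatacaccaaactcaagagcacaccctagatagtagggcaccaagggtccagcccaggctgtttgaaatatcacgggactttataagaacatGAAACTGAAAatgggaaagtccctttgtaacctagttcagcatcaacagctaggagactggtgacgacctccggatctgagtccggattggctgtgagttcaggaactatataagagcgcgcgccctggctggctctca
Igtp (chr11:58199306-58199555, plus strand): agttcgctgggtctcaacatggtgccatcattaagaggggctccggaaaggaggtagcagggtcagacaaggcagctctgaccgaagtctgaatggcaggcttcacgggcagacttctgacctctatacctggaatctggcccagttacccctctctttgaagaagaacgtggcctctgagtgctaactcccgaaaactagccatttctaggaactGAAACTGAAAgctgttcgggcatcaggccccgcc
Irgm1 (chr11:48871421-48871670, minus strand): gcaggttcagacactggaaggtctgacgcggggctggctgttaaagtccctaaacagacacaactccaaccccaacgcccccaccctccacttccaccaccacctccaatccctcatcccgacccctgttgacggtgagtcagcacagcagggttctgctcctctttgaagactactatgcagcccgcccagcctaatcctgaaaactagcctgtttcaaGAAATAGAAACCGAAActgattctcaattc
Gbp2 (chr3:142620413-142620662, plus strand): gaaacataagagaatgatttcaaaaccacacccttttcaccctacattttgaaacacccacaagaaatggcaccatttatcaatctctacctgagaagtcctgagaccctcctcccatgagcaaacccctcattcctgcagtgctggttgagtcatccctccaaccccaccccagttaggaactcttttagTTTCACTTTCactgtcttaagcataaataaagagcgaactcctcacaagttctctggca
The match nearest the start began 139 bases before it in B2m, 34 in Igtp, 24 in Irgm1 and 59 in Gbp2. Irgm1 held 2 overlapping matches, and Gbp2 held its match on the opposite strand. A match is a run of letters and not a shown binding site.

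Of 17 antiviral interferon-stimulated genes with 50 UMIs, 5 were at least 2-fold higher, none was lower, and the median was 0.88. Of the 5, Rtp4 and Irf7 were under 50 UMIs in control and passed through ACD, so the count and the median are not support for a change of the list. Bst2 (chr8:71534255-71537456), tetherin, which holds budding virus at the cell surface, had the highest ratio, from 51 to 488 UMIs and a level of 11.8 to 167 (3.82, 3.41 to 4.27). Ifitm3 (747 to 1611), which blocks viral entry, Rtp4 (1.39 to 28.5), Xaf1 (13.2 to 39.5) and Irf7 (32 to 73 UMIs), a regulator of type I interferon genes, were the others. In the chain that carries the interferon signal, 0 of 10 genes were at least 2-fold changed and the median was -0.05. The receptor chains Ifngr1 (93.0 and 85.1) and Ifngr2 (19.7 and 18.9) had about the same level in both libraries. Cxcl9 and Cxcl10, chemokines that interferon-gamma induces, were low in the members: Cxcl9 went from 0 to 38 UMIs and Cxcl10 from 14 to 18, while fibroblast-gate cells of ACD stood at levels of 554 and 429.8. Of 8 chemokine-list genes with 50 UMIs, Ccl7 (114 to 197 UMIs) was 2-fold higher, with 49.7% of its ACD UMIs in 3 cells.

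Chil1 and Slurp1, both among the 12 highest, encode secreted proteins. Chil1 (chr1:134182176-134190181), a chitinase-like glycoprotein of cartilage and inflamed tissue, had 347 UMIs in control and 2953 in ACD members, a level of 80.4 (72.2 to 89.4) against 1013 (977 to 1051), which is 3.66 (3.49 to 3.82) in log2. In control 43.8% of its UMIs lay in 3 cells, and in ACD 18.2%. In Cytl1/Wif1 cells Chil1 was already at 412 in control and at 1400 in ACD. After thinning it was found in 8.77% and 35.7% of members (unthinned 19.7% and 51.0%), and in 3.87% of lymphocyte-gate ACD cells. Slurp1 (chr15:74724318-74728034), a secreted Ly6-family peptide, went from 270 to 1104 UMIs and from 62.6 (55.3 to 70.5) to 379 (357 to 402), in 25 control and 61 ACD cells. In the other classes of ACD its level was at most 75.4, in Acan/Corin cells, and it was 21.6 (19.0 to 24.4) in Cytl1/Wif1 cells. Thinned, Slurp1 was seen in 2.99% (1.72 to 4.80%) of the control members and in 14.5% (10.7 to 19.0%) of the ACD members (unthinned 4.66% and 20.5%), and in 1.52% of Cytl1/Wif1 and 0.502% of lymphocyte-gate ACD cells.

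Of 11 complement genes with 50 UMIs, 4 were at least 2-fold higher, none was lower, and the median was 0.87. Among them were C4b (13.2 to 67.9), the protease C1s1 (86.2 to 232) and C3, the central component (37.3 to 107). Serping1, the C1 inhibitor, went from 364 to 672 (0.87). Of 6 acute-phase and antimicrobial genes, 4 were at least 2-fold higher, with a median of 1.38: Slpi, a secreted protease inhibitor (61 to 329 UMIs), Serpina3n, a serine protease inhibitor (18 to 149), Plac8 (3 to 68) and Lcn2, an iron-scavenging protein (9 to 47). Serpina3n, Plac8 and Lcn2 reached 50 UMIs only through ACD, so the count and the median are not support for a change of the list. Plac8 had 98.5% and Slpi 57.1% of its ACD UMIs in 3 cells, and without the 3 richest cells of each library the log2 ratio of Plac8 was 0.05 and that of Slpi 1.76. Gpx3, a secreted glutathione peroxidase, went from 56 to 261 UMIs (2.79, 2.37 to 3.23), and it was the only 1 of 19 oxidative stress genes past 2-fold. Has1, a hyaluronan synthase, went from 23.4 to 69.0, the only 1 of 19 genes of the nuclear factor kappa B, interleukin-1 and tumour necrosis factor list. Ly6a, a surface protein of progenitors that interferon also induces, went from 99.7 to 366 (1.88, 1.72 to 2.04), and Angptl4, a relative of Angptl7, from 8.81 to 30.2. Prg4 was at 4.40 in control and 47.0 in ACD members, both below the 352 and 925 of the other cartilage classes.

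**Figure D5:**
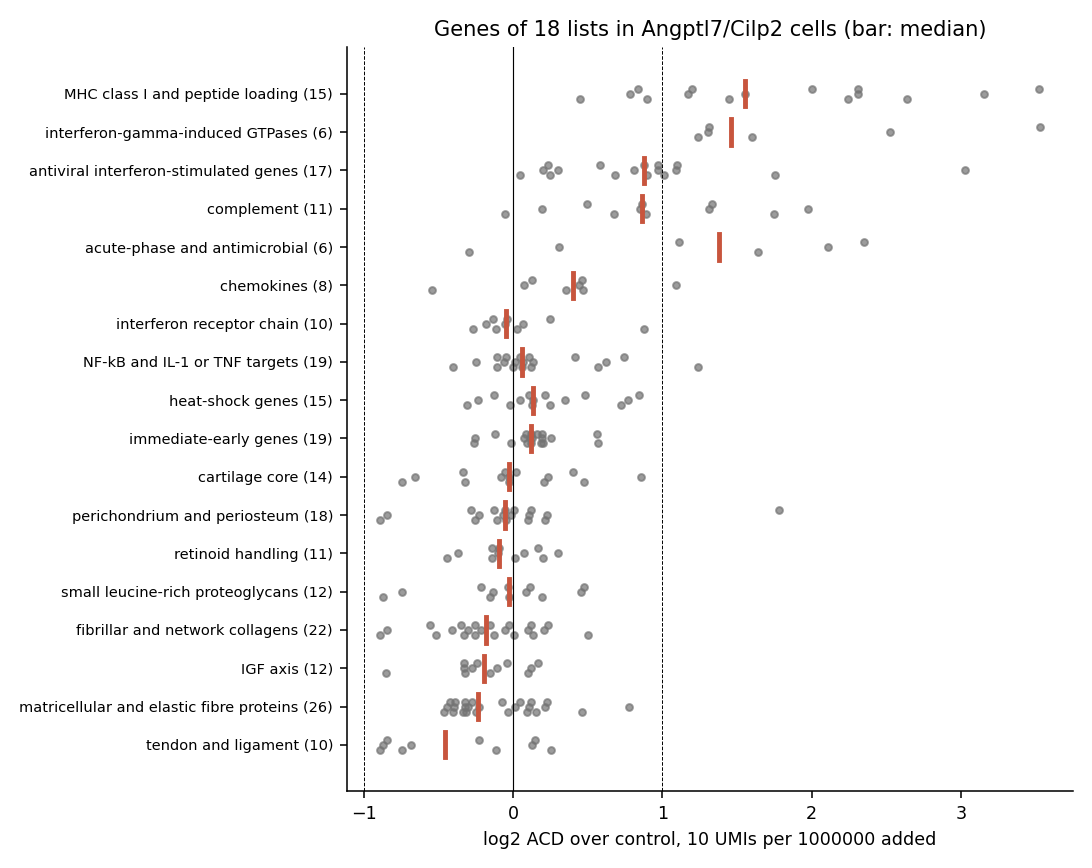
Each point is 1 gene with at least 50 UMIs in the members, placed by its log2 ratio of ACD over control with 10 UMIs per 1000000 added (x axis), in 18 gene lists (rows, with the number of genes), and the red bar is the median of the list. The class I, GTPase, antiviral, complement and acute-phase lists lie to the right of 0, the interferon receptor chain and the cartilage core list near 0, and the tendon and ligament list to the left, with a median of -0.46.

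Genes lower in ACD changed less. Of the 3 past 2-fold, Dct, a melanocyte enzyme, and Krt15, a keratin of keratinocytes, are not genes of cartilage or its sheath, and 98.9% and 92.9% of their control UMIs lay in 3 cells. Zbtb16, a transcription factor that glucocorticoids induce, went from 228 to 61 UMIs and from 52.9 to 20.9 per 1000000, which is -1.34 (-1.77 to -0.92) on the log2 scale. After thinning it was seen in 11.4% of the control members and in 3.37% of the ACD members (unthinned 32.0% and 17.8%), and in 8.26% and 4.73% of Cytl1/Wif1 cells. Fkbp5, also glucocorticoid-responsive, went from 41.0 to 19.2 (-1.09, -1.55 to -0.65), but 1 of 11 genes of that list was 2-fold lower and its median was 0.18, with Klf9 at -0.20, Tsc22d3 at -0.17 and Dusp1 at 0.19. Among the 12 lowest, Adgrg6, an adhesion receptor (66.1 to 30.2), Adra2a, an adrenergic receptor (16.7 to 4.46), Igfbp3 (24.8 to 9.26), Phldb2 (47.8 to 22.3) and Kcna2, a potassium channel (19.9 to 6.86), stood beside matrix genes.

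The tendon and ligament list had a median of -0.46, with 0 of 10 genes past 2-fold in either direction, both with 10 UMIs per 1000000 added. The ratios in the next sentences have nothing added, which makes those of low genes larger, and Col14a1 and Kera are past 2-fold on that scale. Fmod, the proteoglycan fibromodulin (chr1:134037254-134048277), went from 2789 (2740 to 2840) to 1658 (1611 to 1705), or by -0.75 (-0.80 to -0.70) on the log2 scale. Tnmd, the membrane protein tenomodulin, went from 332 to 203 (-0.71, -0.85 to -0.57), the fibril-associated collagens Col12a1 from 205 to 109 (-0.90, -1.09 to -0.72) and Col14a1 from 26.4 to 9.61 (-1.46, -2.11 to -0.85), and the proteoglycan Kera from 209 to 64 UMIs. Kera lay in 8 ACD cells, and 76.6% of its UMIs in 3 of them. The transcription factors Scx and Mkx, which direct tendon cells, stood at -0.11 and 0.15, Thbs4 at -0.23, Egr1 at 0.13 and Chodl at 0.25. Over the cells, the summed list fell from a median of 9 to 7 UMIs of 2000, with wide overlap. In Cytl1/Wif1 cells the list median was -0.06, and this difference between the classes was not tested.

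In the other matrix groups Ly6a was the only gene past 2-fold. The cartilage core list had a median of -0.03 over 14 genes, with Col2a1 at -0.03, Sox9 at -0.08 and Chad, chondroadherin, at 0.48. Collagens had a median of -0.18 over 22 genes (Col1a2 6235 to 4686, Col8a1 4134 to 4434), small leucine-rich proteoglycans -0.03 over 12 (Dcn, decorin, 18397 to 15858), matricellular and elastic fibre proteins -0.24 over 26 (Sparc 17739 to 14374), collagen-modifying enzymes -0.03 over 19 and matrix proteases with their inhibitors -0.15 over 19 (Timp1 43.3 to 73.8, Htra1 265 to 169.5). The hypertrophy and mineralisation list had a median of 0.02 over 5 genes, with Mgp, matrix Gla protein, at 7978 in control and 11217 in ACD. The perichondrium and periosteum list stood at -0.05 over 18. Medians of signalling lists were -0.20 for the IGF axis (12 genes, Igfbp3 lowest), -0.07 for TGF-beta and BMP (21), -0.14 for Wnt (11, Sfrp2 -0.63), -0.12 for FGF and hedgehog (14, Gli3 -0.72) and 0.02 for the angiopoietin-like proteins (3). Against the median of all genes, -0.06, these lists differed little.

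State genes were also near the median of all genes. It was 0.12 for 19 immediate-early genes, 0.13 for 15 heat-shock genes (Hspa1a 744 to 1345), 0.00 for 22 genes of hypoxia and glycolysis, 0.04 for 19 of the oxidative stress response, -0.07 for 16 of the unfolded protein response, -0.02 for 28 of the respiratory chain, -0.04 for 8 of the cell cycle, -0.11 for 14 receptors and mediators of interleukins 4, 6 and 17, 0.06 for 19 targets of interleukin 1 and tumour necrosis factor and -0.15 for 11 of lipid handling. In lipid handling Fabp4 (3 to 97 UMIs) was past 2-fold, with 99.0% of its ACD UMIs in 3 cells.

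Markers of other cells were read in the same way. Of the mural cell list, Acta2, Tagln and Des were at least 2-fold higher, and 82.5%, 86.7% and 93.3% of their ACD UMIs lay in 3 cells. Of the erythrocyte list, Hbb-bs and Hbb-bt were higher, with 98.2% and 99.2% of ACD UMIs in 3 cells and 96.8% and 98.0% in control. The remaining lists with a gene of 50 UMIs were keratinocytes (4 genes, median -0.04), dermal fibroblasts (10, -0.13), basophils and mast cells (Kit, -0.51), Schwann cells (Mbp, 0.61) and melanocytes (Dct, -1.51). Without the 3 richest cells of each library the log2 ratio was 0.40 for Acta2, 0.68 for Tagln and 0.09 for Des. It was 0.17 for Hbb-bs, -0.0049 for Hbb-bt, -0.03 for Dct and -0.06 for Krt15. None of these genes was past 2-fold in that setting, and the source of their UMIs was not tested.

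The cells that met every condition but carried a Pdgfra UMI give the same contrast in cells the rule did not use, though from the same libraries. They numbered 625 in control and 572 in ACD, 53.8% and 65.7% of all cells that met the other conditions, with medians of 8974 and 11568 UMIs. Among the 58 genes higher in members, 43 (74.1%) were at least 2-fold higher there. Of all 8884 genes tested in members 61 were at least 2-fold higher there, and the 43 made up 70.5% of these. H2-K1 had a log2 ratio of 3.77 (3.62 to 3.92) there, B2m 2.58 (2.52 to 2.64), Cd74 7.49 (6.89 to 8.16), Iigp1 8.21 (6.85 to 10.09), Chil1 4.33 (4.19 to 4.47) and Slurp1 2.99 (2.80 to 3.19). Of the genes with most of their UMIs in 3 members, Plac8 (3.35) and Slpi (3.05) had the same direction there, while others had the opposite one: Fabp4 stood at -1.10, Acta2 at -1.35, Hbb-bs at -1.37, Dct at 1.57 and Kera at 0.56. Gpx3 was at 0.45 (0.27 to 0.63) and Ccl7 at -0.02 (-0.15 to 0.12), both below their ratios in the members. Zbtb16 was 2-fold lower in both, at -1.32 (-1.58 to -1.06), and Tnmd (-1.07), Fmod (-0.56) and Col12a1 (-1.09) were lower as well.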

How the data were processed

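Ear skin was dissociated with collagenase D and DNase1, and 1 control and 1 ACD library were made with a 3′ single-cell kit and sequenced. The authors deposited UMI counts per gene (27998) and barcode, without normalization, made with Cell Ranger 3.1.0 per the file headers and with the build mm10 per the labels. There were 12895 barcodes and 99037698 UMIs for control, and 13163 and 126566870 for ACD. Every value was computed from these counts with Python 3.11.15, numpy 2.4.6, scipy 1.17.1, pandas 2.3.3, scanpy 1.11.5 and matplotlib 3.10.9.

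A cell was kept with 201 to 4999 genes, no more than 25000 UMIs, and less than 8% of UMIs from mitochondrial genes. The members, gene lists and named genes were chosen with earlier results of these data known. Levels are UMI sums of a class per 1000000. Intervals are exact (Poisson, or Clopper-Pearson for shares) and cover counting error only. Ratios across genes use at least 50 UMIs and 10 UMIs per 1000000 added, leaving out rule genes and duplicated symbols. Named genes are the 12 at each end of the ACD ranks, the 12 highest and 8 lowest against other classes, those with most UMIs or largest ratio of 44 lists, and a few chosen after their values were seen. Shares use cells thinned to 2000 UMIs, leaving out shallower ones. Positions come from GENCODE M21 on GRCm38, which held 27722 of the identifiers, and promoters from RefSeq (GRCm38.p6). On simulated counts of 8914 genes for ACD against control in members, 95.5% of intervals held the true value and all 200 changed genes had the true sign. The counts were drawn as Poisson sums, the model that the intervals assume, so this checks only the computation. It does not cover genes whose UMIs lie in a few cells, for which the intervals are too narrow. Alternatives were other filters, gates and set limits, thinning before the rule, Scrublet, size factors, the mean over cells, and other floors and additions. Some genes of the lists are not reported here.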

Additional observations from a re-analysis of the deposited data

How the results depend on the processing

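No paired analysis was possible because each group is 1 library and no test was made. The log2 ratio of the member share of kept cells was -0.78, and it was -0.35 without the Pdgfra condition, -0.50 with the rule applied to cells thinned to 2000 UMIs, and -0.0616 over only the Pdgfra-positive cells. Over cartilage-class cells it was -0.09, and 0.16, 0.27 and 0.23 under the same settings. The 58 genes at least 2-fold higher became 90 with the thinned rule and 97 with 1 UMI per 1000000 added. The 3 genes lower became 10 with the thinned rule, 1 without Scrublet calls, 22 in Pdgfra-positive cells, 46 with 1 UMI per 1000000 added, 1 with at least 200 UMIs and 6 without the 3 richest cells of each gene. Dct turned to 0.14 without the Pdgfra condition, 0.0618 with a lead of 0.5 over the next set, 0.0437 without Scrublet calls and 0.87 in Pdgfra-positive cells. Kera turned to 0.37 and Krt15 to 0.0294 in Pdgfra-positive cells, and Krt15 to 0.00884 without Scrublet calls. With the thinned rule Slpi fell from 2.35 to 1.07 and Tnmd from -0.69 to -1.32. Over the alternatives the median of the GTPase list ran from 1.24 to 3.01, the highest with 1 UMI per 1000000 added, and that of the cartilage core list from -0.18 to 0.03. The Pdgfra-positive cells and the omission of the richest cells were chosen after seeing the data. The causes were not tested.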

Other observations

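The set that came next after the members' own was that of Cytl1/Wif1 cells in 65.9% (61.7 to 69.9%) of control and 71.8% (66.3 to 76.8%) of ACD members, and that of Ucma/Smoc1 cells in 26.3% and 17.8%. Ucma, the Gla-rich cartilage protein, went from 747 to 403 in the members, and Smoc1 from 87.6 to 49.1. Both are genes of a competing set. Their levels, and the shares of the next set, come from values that the rule used and carry no test. In ACD the median sum of class I UMIs of 2000 was 13 in the 213 members next to the Cytl1/Wif1 set, 16 in the 53 next to the Ucma/Smoc1 set and 12 in the 29 next to the Gdf5/Scara3 set, against 3, 3 and 2 in control. These are cells of 1 library each, and the differences were not tested.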
